A study of Mus musculus with 12 samples.

Results

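The BCL2 family decides whether a cell keeps or opens its outer mitochondrial membrane, and the accessible regions of 10 of its genes were followed in mouse myeloid cells that lose and regain Hoxa9 activity. The genes were the anti-apoptotic Bcl2, Mcl1, Bcl2l1 and Bcl2l2, the effectors Bax and Bak1, and the BH3-only genes Bcl2l11, Bbc3, Bid and Bmf, so the group holds promoters of death as well as of survival. A region belonged to a gene when it overlapped that protein-coding gene, or when the gene's start or end was the nearest within 50000 bases. Where a region overlapped more than 1 gene, the nearest gene boundary decided. A tie went to the gene that begins first along the chromosome. A region over the first start of Bcl2l11 was such a tie with Acoxl and went to Acoxl, so the family's counts leave it out. These rules gave 18 regions of 16028 in all, at 9 of the 10 genes, and none at Bak1. All coordinates are those of GRCm38.

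Chromatin was profiled by ATAC-seq, in which a transposase cuts open DNA, in ER-Hoxa9-Lys-GFP cells of C57BL/6 mice grown in medium with stem cell factor. In these immature cells Hoxa9 is fused to the estrogen receptor and works only while estradiol (E2) is present, and GFP reports lysozyme, a product of maturing myeloid cells. All 6 groups used this cell culture and carried the same fusion, and each had 2 libraries for which 1 peak list was deposited. One group stayed in E2 throughout. A further group spent 120 h without it. The other 4 went 24, 40, 56 or 72 h without E2 before E2 was returned for 96, 80, 64 or 48 h, so a longer withdrawal always came with a shorter return and both durations form 1 variable. The lists held 13165 peaks in continuous E2, 11465, 9940, 8989 and 9581 in the add-back groups in that order, and 7987 at 120 h. They gave positions only, so depth was unknown and no replicate spread or test between groups could be had. Presence in a list and peak width were the measurements, and each is a description of these lists.

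Checked against their markers, the cells had regions at 9 of 10 myeloid progenitor genes, with 17 of 18 regions called in continuous E2 and 4 at 120 h. Over all regions of the series, 82.1% were called in continuous E2 and 49.7% at 120 h. At 8 of 9 neutrophil genes with a region, 3 of 10 regions were called in continuous E2 and 8 at 120 h. No region lay at the 5 T cell genes, 2 of 5 erythroid genes had 1 each, and 3 of 5 B cell genes had 6 regions, of which 5 were called in continuous E2 and 2 at 120 h. Repeated rows in the deposited lists lay on chromosomes without any of the 10 genes.

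In the mitochondrial pathway of apoptosis, Bax and Bak1 form pores in the outer membrane and release cytochrome c. Bcl2, Mcl1, Bcl2l1 (BCL-XL) and Bcl2l2 (BCL-W) hold them back. BH3-only proteins, switched on by stress or by loss of growth factors, block the guardians or activate the effectors directly. Neutrophils are short-lived cells known to depend on Mcl1, and Bcl2 is known as a survival gene of lymphocytes and of blood progenitors.

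The starts of 5 of these genes are shown because their regions followed different courses: Bcl2 and Bid were missing from the 120 h list alone, Bcl2l2 was called in the add-back lists alone, and Mcl1 and Bmf were called in every list. Each line is the 250 bases before the start, 5' to 3' on the gene's strand, from RefSeq (GRCm38.p6). Capitals mark the GC box (GGGCGG), the CCAAT box (CCAAT) and the ETS and PU.1 core (GAGGAAG) on either strand.
Bcl2, chr1:106714291-106714540, minus strand: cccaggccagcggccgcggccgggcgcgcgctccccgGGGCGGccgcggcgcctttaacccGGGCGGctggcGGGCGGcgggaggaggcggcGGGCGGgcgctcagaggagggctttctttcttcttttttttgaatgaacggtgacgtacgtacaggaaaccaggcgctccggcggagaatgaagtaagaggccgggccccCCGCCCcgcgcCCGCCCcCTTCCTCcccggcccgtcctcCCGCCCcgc
Bid, chr6:120916825-120917074, minus strand: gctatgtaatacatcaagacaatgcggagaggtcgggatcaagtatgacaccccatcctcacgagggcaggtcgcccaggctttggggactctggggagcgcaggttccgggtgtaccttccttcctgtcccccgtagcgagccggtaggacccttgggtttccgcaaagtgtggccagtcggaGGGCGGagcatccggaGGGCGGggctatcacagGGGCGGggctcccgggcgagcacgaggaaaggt
Bcl2l2, chr14:54883175-54883424, plus strand: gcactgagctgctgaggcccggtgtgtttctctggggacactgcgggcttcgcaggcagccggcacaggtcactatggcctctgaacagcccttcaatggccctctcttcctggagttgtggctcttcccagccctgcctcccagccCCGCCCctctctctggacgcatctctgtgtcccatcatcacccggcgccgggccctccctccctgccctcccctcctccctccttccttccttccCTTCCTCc
Mcl1, chr3:95658471-95658720, plus strand: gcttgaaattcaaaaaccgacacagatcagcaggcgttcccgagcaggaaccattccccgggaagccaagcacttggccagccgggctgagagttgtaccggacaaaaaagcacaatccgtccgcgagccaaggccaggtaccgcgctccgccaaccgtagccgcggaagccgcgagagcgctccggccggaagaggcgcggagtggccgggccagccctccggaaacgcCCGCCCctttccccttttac
Bmf, chr2:118549687-118549936, minus strand: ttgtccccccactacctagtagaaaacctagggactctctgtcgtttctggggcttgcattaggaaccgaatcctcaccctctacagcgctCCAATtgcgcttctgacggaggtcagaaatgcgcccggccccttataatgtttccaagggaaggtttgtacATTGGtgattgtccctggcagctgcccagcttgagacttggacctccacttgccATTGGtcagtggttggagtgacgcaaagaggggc

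The Bcl2 window was the richest of these in G and C, at 74.8% with 36 CpG pairs and 7 GC boxes, and Bid had 63.6%, 18 CpG pairs and 3 GC boxes. Mcl1 had 64.4%, 26 CpG pairs and 1 GC box. Bcl2l2 had 66.0% but 9 CpG pairs, and Bmf 54.0% with 8 CpG pairs, 3 CCAAT boxes and no GC box. Over the 9807 start windows of the reference that touched any region, the median GC content was 61.6%, and 64.4% held a GC box, 37.0% a CCAAT box and 10.9% the ETS and PU.1 core. Of all 32851 windows of this length, 32.7%, 33.8% and 10.6% did. All 10 genes matched the promoter table, with 17 windows. Of these 17 windows 10 held a GC box, and they belonged to 7 of the genes. The E-box (CACGTG, 6.02% of all windows) was found at Bax and Bbc3, RUNX (TGTGGT, 14.0%) at Bak1 and Bmf, MEIS (TGACAG, 15.9%) at Bbc3 and Bcl2l1, and FOX (GTAAACA, 3.17%) at Bbc3 and Bcl2l11. Each of these motifs was in 2 of the 17 windows. Of the windows touching a region, 9.38%, 10.3%, 13.7% and 1.97% held them, in that order. AP-1 (TGANTCA, 6.75%), CRE (TGACGTC, 2.78%) and GATA factor (AGATAAG, 2.74%) letters were in none of the 17. Both strands were searched, and no base lay in more than 1 kind of motif.

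Bcl2, the founding anti-apoptotic member, had 4 regions, and 3 of them were in continuous E2 but not at 120 h. Of all regions called in continuous E2, 50.6% were missing at 120 h. The region over its start (chr1:106713793-106714873) had peaks of 1076, 988, 936, 840 and 795 bases from continuous E2 to 72 h of withdrawal, and none at 120 h. It was thus narrower in each later list that called it, and all 250 bases printed above lay inside the peak in the 5 lists that called it. Narrowing was general, with a median of 934 bases in continuous E2 and 637 after 72 h over regions called in all 6 lists. Further along this gene of 176115 bases, a region 158.5 kb downstream of the start, inside the gene (chr1:106555441-106556137), had a peak of 674 bases in continuous E2 and 537 after 24 h and none in the other 4 lists. A region 198.4 kb downstream, which lies 22039 bases past the gene's end (chr1:106515561-106516137), had 450 and 515 bases in the same lists and none later. In lists cut to the 7987 widest peaks, neither of these distal regions was called. The fourth went the other way. It lies inside the gene 86.8 kb from the start (chr1:106627306-106627631) and was missing from continuous E2 alone, as were 1.99% of all regions, with narrow peaks of 257, 230, 223, 299 and 314 bases from 24 h to 120 h. At 120 h this intragenic region was the only one of Bcl2 still called.

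Mcl1, the guardian that neutrophils depend on, had a start region in every list and an upstream one in the later lists. The start region (chr3:95658443-95659650) was among the widest of the family, with 1192, 1182, 1127, 1019, 1126 and 1118 bases in the order of the lists. Its width at 120 h was 0.938 of that in continuous E2, against a median of 0.665 and an upper quartile of 0.782 over the 6502 regions called at both end points. The second region (chr3:95650548-95651344), outside the gene with its middle at -7.78 kb from the start, was not called in continuous E2 or after 24 or 40 h. It had 406 bases after 56 h, 566 after 72 h and 797 at 120 h, so it was wider in each later list. Its pattern, called from 56 h on, was shared by 129 of 16028 regions (0.805%).

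Bcl2l1, whose long product BCL-XL also protects red cell precursors and platelets, had a region over its start and another inside the gene. The start region (chr2:152830658-152831800) covered 2 of 3 listed starts and had 1137 bases in continuous E2, 1136 after 24 h, 1099 after 72 h and 1096 at 120 h, with no peak after 40 or 56 h. Where it was called it was thus of nearly constant width. This pattern was rare, with 55 of 16028 regions (0.343%). The other (chr2:152788838-152789954), 39.1 kb downstream of the nearest listed start, had 1102, 1115 and 1017 bases up to 40 h and none after that. In the list of 56 h no region of Bcl2l1 was called.

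Bcl2l2, encoding BCL-W, had 1 region, over its start (chr14:54883092-54883756), and it was called in neither end point. The add-back lists, in order of withdrawal, had peaks of 665, 433, 284 and 484 bases. Calls confined to all 4 add-back lists were made at 116 of 16028 regions (0.724%).

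**Figure D1:**
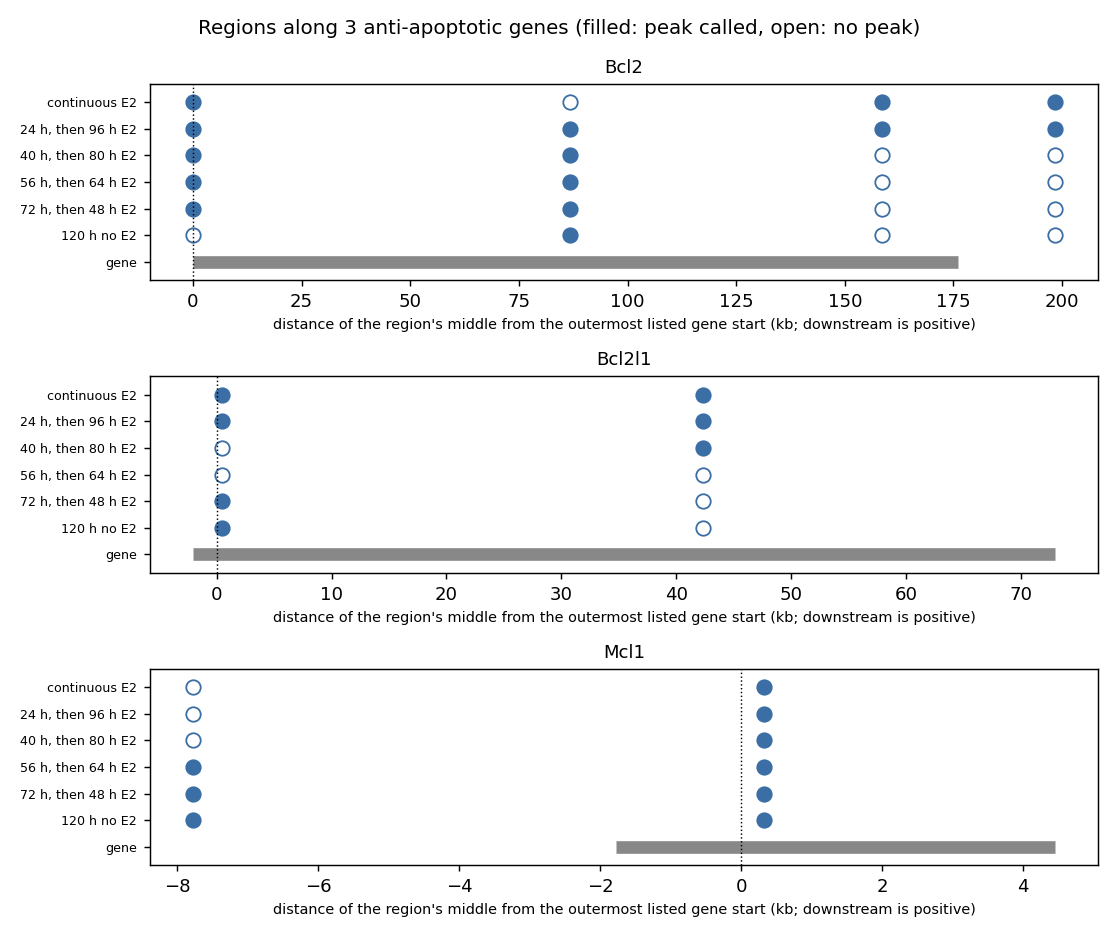
Regions along Bcl2, Bcl2l1 and Mcl1 by distance in kb from the outermost listed start (x axis) and peak list (y axis), with filled circles for a called peak, open circles for none and a grey bar for the gene. At Bcl2 the regions at 158.5 and 198.4 kb were called in the first 2 lists, the one at 86.8 kb in all but the first, and the start in all but the last.

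Of the effectors, Bax was called everywhere and Bak1 nowhere. The Bax start region (chr7:45466458-45467138) had 535, 651, 567, 538, 642 and 639 bases in the order of the lists. It was the only 1 of the 6 family regions called at both end points that was wider at 120 h than in continuous E2, a feature of 3.11% of such regions overall. Bak1 had no peak over its start in any list. The nearest regions lay 27550 bases from its boundary, at the receptor gene Itpr3, and 46320 bases from it, at Zbtb9, and both were called in all 6 lists.

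The BH3-only genes had 8 regions, of which 3 were called in continuous E2 but not at 120 h, 3 at both, none at 120 h alone and 2 at neither. Of the 6 called in continuous E2, 3 were thus missing at 120 h, where 50.6% of all such regions were. Of the 3 called at 120 h none was missing from continuous E2, where 18.4% of all such regions were. Bcl2l11 encodes BIM, which responds to loss of growth factors. Its region over the second listed start (chr2:128127117-128128093) was called in all lists, with 977, 786, 737, 628, 489 and 645 bases. A separate peak over its first start (chr2:128125651-128126466) was also called in all lists, with 816, 557, 369, 416, 384 and 414 bases. It overlaps Acoxl as well, and the tie between both genes gave it to Acoxl, so it is not in the family's counts. A region 41298 bases past the end of Bcl2l11 (chr2:128203845-128204333), the farthest that the rule took, had 489 bases after 24 h and none elsewhere. With a limit of 100000 bases no further region was added to any of the genes.

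Bbc3 encodes PUMA, a target of p53. A region inside the gene, 2.86 kb from the nearest listed start (chr7:16312545-16314031), was the widest of the family in continuous E2, with 1487 bases. It had 1399, 989, 627 and 777 bases in the add-back lists and no peak at 120 h. A separate region (chr7:16310084-16310403) covered 1 of 3 listed starts. It had a narrow peak of 320 bases after 56 h and of 268 bases after 72 h, and none in the other 4 lists. At 120 h Bbc3 had no region.

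Bid, cleaved by caspase-8 to carry death receptor signals to mitochondria, had neighbouring regions with different courses. The start region (chr6:120916441-120917103) had 647, 520, 491, 529 and 485 bases and no peak at 120 h. The one inside the gene (chr6:120914780-120915652), 1.61 kb downstream, had 865, 856 and 542 bases up to 40 h, none after 56 h, 505 after 72 h and 465 at 120 h. So at 120 h the downstream region was called and the start was not.

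Bmf, which senses loss of attachment and other stress, had a start peak that was narrower in each later list. The start region (chr2:118549457-118550124) had 668, 531, 479, 373, 357 and 303 bases, in the order of the lists. Its upstream edge lay 438 bases before the start in continuous E2 and 183 bases before it at 120 h, and its downstream edge 229 and 119 bases after it. Its width at 120 h was 0.454 of that in continuous E2, and 10% of the regions called at both end points had a ratio at or below 0.454. With the narrowest 25% of each list left out it was called in 1 list. The other region (chr2:118529378-118529892), inside the gene 20.1 kb downstream of this start and 14.95 kb from the nearest listed one, had 427 and 463 bases in continuous E2 and after 24 h and no peak later.

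**Figure D2:**
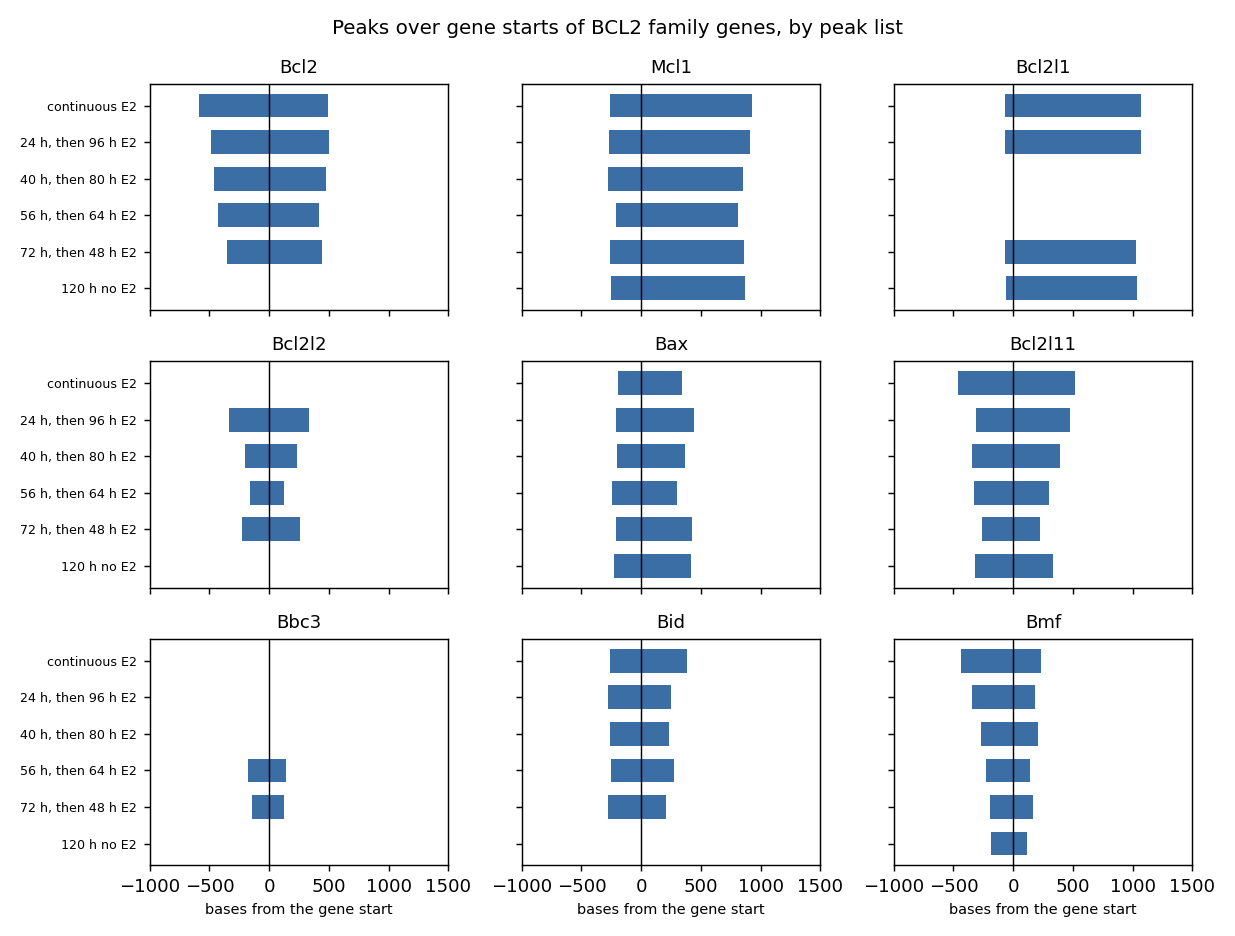
Extent of each list's peak in bases from the gene start (x axis) for the 9 genes with a region over a start, with 1 bar per peak list (y axis) and no bar where no peak was called. Bcl2 and Bid lack a bar at 120 h, Bcl2l1 after 40 and 56 h, and Bcl2l2 at both end points. Bbc3 has bars after 56 and 72 h alone. The bars of Mcl1, Bax, Bcl2l11 and Bmf are present in all 6 lists.

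Set side by side, 7 of the 13 family regions called in continuous E2 were missing at 120 h, here termed lost, where 50.6% of all such regions were. Of the 8 called at 120 h, 2 were missing from continuous E2, termed gained, where 18.4% of all were. A further 6 were called at both end points, termed kept, and 3 at neither (8.71% of all regions). The starts of Mcl1, Bax, Bcl2l11 and Bmf were called in all 6 lists, as were 32.8% of all regions. Anti-apoptotic genes held 4 of the lost regions, both gained ones and 2 kept ones, while BH3-only genes held 3 lost and 3 kept. These shares lie near the background, and with 18 regions nothing here sets the family apart.

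Along the order of withdrawal the calls were uneven. In the lists from continuous E2 to 120 h, 13, 16, 11, 11, 13 and 8 of the 18 regions were called, against 82.1%, 71.4%, 61.9%, 55.9%, 59.5% and 49.7% of all regions. The list of 24 h withdrawal called all 13 of the regions of continuous E2, where 77.8% of all regions were, and 3 more, at Bcl2, Bcl2l2 and Bcl2l11. Of the 16 regions called there, these 3 were not in continuous E2, a feature of 10.5% of all. The next 4 lists called 9, 7, 9 and 6 of these 13, against 67.0%, 58.8%, 60.3% and 49.4% overall. All 7 lost regions switched once in this order, as did 84.2% of all lost regions. Those of Bcl2 at 158.5 and 198.4 kb and that of Bmf 20.1 kb from its covered start ended after 24 h, a pattern of 8.70% of all regions. The one of Bcl2l1 at 39.1 kb ended after 40 h (5.53% of all). The starts of Bcl2 and Bid and the region inside Bbc3 were missing at 120 h alone (6.59% of all), so these 3 were called in every list with E2 at the end.

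By place, 9 of the 18 regions covered a listed start of their gene, where 46.8% of all regions lay within 1000 bases of a start. These 9 were called 7, 8, 7, 8, 9 and 5 times in the order of the lists, against 86.5%, 84.2%, 80.6%, 77.9%, 80.7% and 66.9% of the 7501 regions within 1000 bases of any start. After 72 h of withdrawal each of these 9 start regions was called, and it was the only list in which they all were. The other 9 were called 6, 8, 4, 3, 4 and 3 times, against 78.3%, 60.2%, 45.5%, 36.5%, 40.9% and 34.6% of regions farther from starts. Of the 7 start regions in continuous E2, 2 were lost, against 30.6% of all near starts, and of the 6 elsewhere 5 were lost, against 70.1%. Of the 5 starts called at 120 h none was gained, against 10.2%, and of the 3 others 2 were, against 32.4%. Both lost starts, of Bcl2 and Bid, were missing at 120 h alone.

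**Figure D3:**
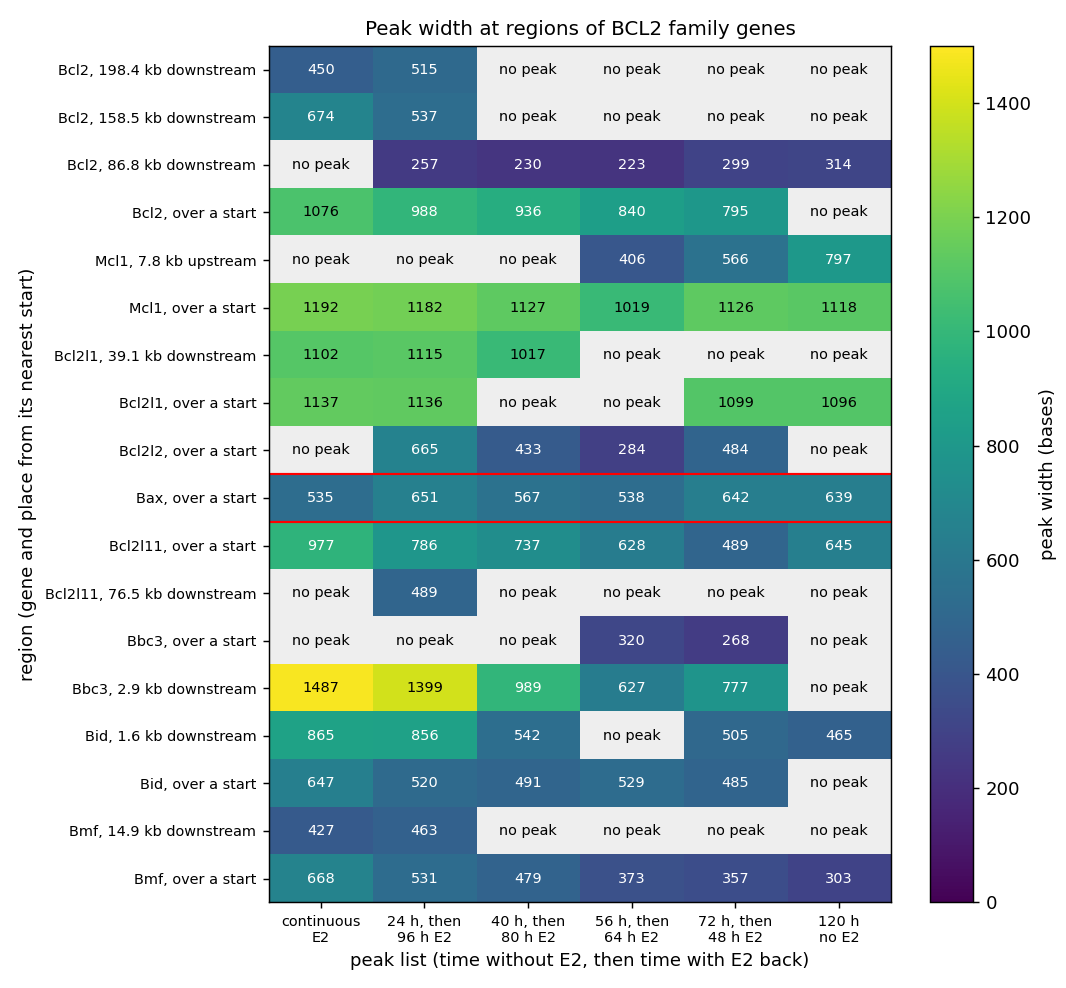
Peak width in bases (colour and printed value) of the 18 regions (y axis) in the 6 peak lists (x axis), with red lines between anti-apoptotic, effector and BH3-only genes. Grey cells have no peak. The Mcl1 start stays between 1019 and 1192 bases, while the starts of Bcl2 and Bmf narrow from left to right. The median width of all kept regions falls as well, from 935 bases in continuous E2 to 604 at 120 h.

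The family's peaks had a median of 865 bases in continuous E2 and 658, 567, 529, 505 and 642 bases in the later lists, against 839, 769, 697, 604, 596 and 582 bases over all regions. Their summed length was 11.24 kb over 13 regions in continuous E2 (mean 864 bases), 12.09 kb over 16 after 24 h (mean 756) and 5.38 kb over 8 at 120 h (mean 672). The sums at 24 h and 120 h were 107.6% and 47.9% of that in continuous E2, against 79.98% and 41.95% for all regions, whose mean widths were 874, 804 and 606 bases in these lists. Among the 6 kept regions, the ratio of width at 120 h to that in continuous E2 was 1.19 at Bax, 0.964 at Bcl2l1, 0.938 at Mcl1, 0.660 at Bcl2l11, 0.538 at Bid and 0.454 at Bmf. The first 3 exceed 0.898, a ratio that 10% of all kept regions exceeded. Among these 6, the 3 anti-apoptotic and effector starts had the higher ratios and the 3 BH3-only regions the lower, with no replicate check. Bcl2l11 lay near the median ratio of 0.665 over all kept regions. The start regions of Bcl2, Bcl2l2, Bbc3 and Bid have no such ratio, as none of them had a peak at 120 h. The order therefore covers kept regions only and does not describe the roles as a whole.

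**Figure D4:**
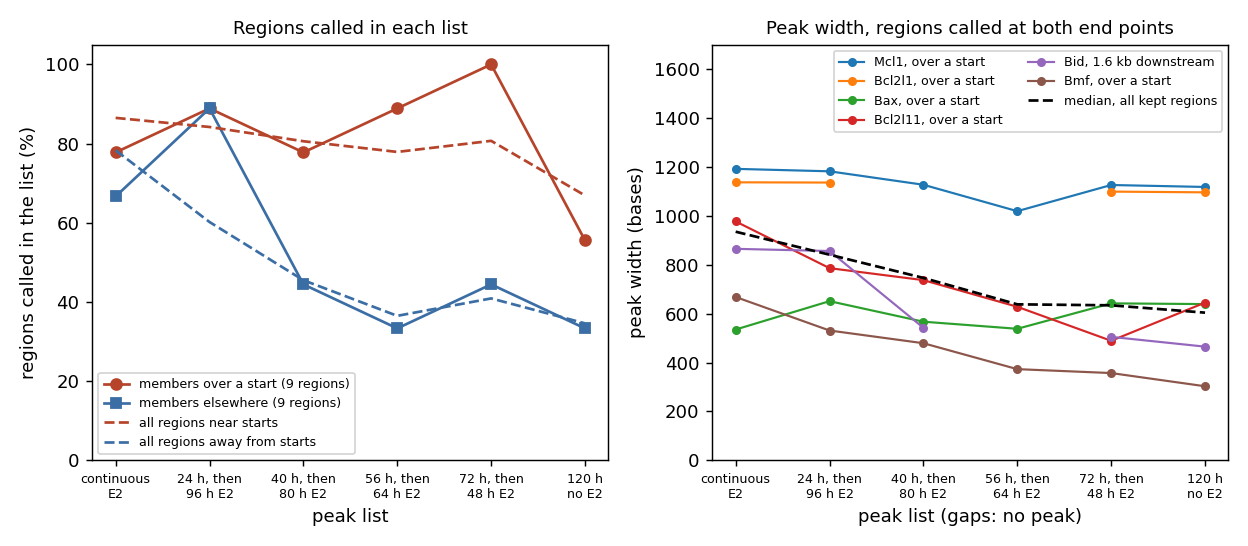
Left, the share of regions called (y axis, percent) in each peak list (x axis) for the 9 family regions over a start, the 9 elsewhere, and all regions near or away from starts as dashed lines. Right, peak width in bases of the 6 kept family regions with the median of all 6502 kept regions dashed; Bcl2l1, Mcl1 and Bax have similar widths at both end points, and Bmf goes from 668 to 303 bases.

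Within 50000 bases of the 10 genes lay 27 regions that belonged to another gene, with 17 kept, 6 lost, 3 gained and 1 called at neither end point. Of the 23 called in continuous E2, 26.1% were lost, below the 50.6% of all regions. Of these 23, 14 lay within 1000 bases of a gene start, with 14.3% lost against 30.6% of all such regions, and 9 lay elsewhere, with 44.4% lost against 70.1%. Of the 20 called at 120 h, 15.0% were gained, against 18.4% of all. Downstream of Mcl1, 10694 bases from its boundary, a region at Adamtsl4 (chr3:95673873-95675984) had 2034 bases after 24 h and 582 at 120 h and no peak elsewhere. Near Bcl2l1, a region at Id1 (chr2:152735954-152736671), the gene of a helix-loop-helix inhibitor, was missing from continuous E2 and after 24 h and had 718, 472, 524 and 578 bases from 40 h on. At Ftl1, the ferritin light chain gene beside Bax, a region of 1922 bases in continuous E2 (chr7:45459273-45461194), 501 bases from Bax, was called again after 56 and 72 h with 482 and 452 bases. Near Bbc3, a region assigned to Ccdc9 (chr7:16294523-16295754) was called up to 56 h with 1195, 1199, 1125 and 992 bases. Upstream of Bid, a region in Mical3 (chr6:120955377-120957706) had 2330 bases in continuous E2 and 1328 after 24 h only. Which gene such a region acts on was not tested.

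The rest of the pathway was followed in 5 lists of 64 genes, of which 46 had 68 regions. Lost regions numbered 25, gained 7 and kept 27, and 9 were called at neither end point. Of the 52 called in continuous E2, 48.1% were lost, and of the 34 called at 120 h, 20.6% were gained, near the 50.6% and 18.4% of all regions. In the list of other BCL2 family genes, 3 regions were lost (30.0% of those in continuous E2), 1 was gained and 7 were kept. Pmaip1, the BH3-only gene of NOXA, which targets Mcl1, held the gained one (442 bases at 120 h, called from 56 h on), a region called in the 4 add-back lists alone with 1265, 1000, 847 and 831 bases, and one of 493 bases after 24 h alone. These 3 regions thus shared the patterns of the Mcl1 upstream region, the Bcl2l2 start and the distal Bcl2l11 region, while its other region was called in all 6 lists, with 943 bases in continuous E2 and 563 at 120 h. Bok and Bcl2l14 had a lost region each with the pattern of the Bcl2l1 region at 39.1 kb. Among the apoptosome and caspase genes, with 6 lost (46.2%), 2 gained and 7 kept, the start of Parp1, a caspase substrate, had 808, 706, 511, 525 and 500 bases and no peak at 120 h, the pattern of the Bcl2 and Bid starts. The start of Casp1, the inflammasome caspase, had 898 bases in continuous E2 alone. Cycs, cytochrome c, had a region gained 20724 bases from its start.

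Inhibitors of apoptosis had 4 lost (of 8 in continuous E2) and 2 gained regions, and 4 were kept. Xiap, which blocks caspases, had 1187, 1090 and 995 bases over its start in continuous E2 and after 40 and 72 h, and no peak in the other 3 lists. Naip2 had both gained regions, at 120 h alone, and lost its start of 617 bases. Naip genes are near copies of each other, so reads there may be split and their calls are uncertain. Death receptor genes had 7 lost, 0 gained and 2 kept. The start of Tnfrsf1a, a TNF receptor, had 1279 bases in continuous E2 and no peak in any other list, and that of Tnfrsf1b had 881, 853 and 813 bases up to 40 h. Of the 9 regions of this list in continuous E2, 7 (77.8%) were missing at 120 h, the highest share of the 5 lists, where 50.6% of all were. Among all regions this share was 70.1% over 1000 bases from a start and 30.6% nearer. The list was not split by place. Regulators of family members had 5 lost (41.7%), 2 gained and 7 kept. Mdm2, the ligase that degrades p53, had 1334, 1067, 981 and 1006 bases over its start in continuous E2 and after 24, 40 and 72 h, and no peak after 56 h or at 120 h. Near Trp53, 903 bases from its start, a region of 292 bases was called at 120 h alone, and over the start of Foxo1 one of 312 bases. Foxo3 had a region of 786 and 788 bases after 56 and 72 h alone, the pattern of the Bbc3 start.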

How the data were processed

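ATAC-seq peaks of 12 libraries in 6 groups were used, as 1 deposited list per group, which the labels name for both libraries; how these were combined is not given in the sources used here. The authors deposited chromosome, start and end of each peak, with no score, count or depth. The submitters' processing notes name the build mm9 and the tools BWA, STAR 2.5 and MACS2 2.0, without saying what each did. Of the peaks, 49.3% to 65.1% lay within 1000 bases of a GRCm38 gene start, against 5.43% to 5.62% after a shift of 100000 bases, so GRCm38 was used.

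Exact duplicates and intervals over 10000 bases were dropped and overlapping rows merged. Regions were the union of the 6 lists, called in a list by overlap of 1 base or more. Lost, gained and kept refer to continuous E2 and 120 h. Where a region overlapped more than 1 gene, the nearest gene boundary decided, and a tie went to the gene that begins first along the chromosome. The gene table gives spans, not exons. No test was run, since each group had 1 list and the regions are not replicates. The genes, gene lists and motifs were chosen with earlier results of these data known. All 10 genes were described with every region, and genes of the other lists were named if a region was lost, gained or in neither end point. Merging, classes and assignment were tested on simulated data. Alternatives covered overlap, list length, peak width, gene assignment and interval width. Python 3.11.15, numpy 2.4.6, pandas 2.3.3 and matplotlib 3.10.9 were used.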

Additional observations from a re-analysis of the deposited data

How the results depend on the processing

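No paired analysis was possible because each group's libraries share 1 peak list, which also means that none could be left out. Depth is unknown, so a missing peak may be a weak one that was not called. Intervals over 5000 bases left out and assignment within 100000 bases changed no class of the 18 regions. Assignment within 20000 bases, or to any gene type, left 16, without the distal Bcl2 and Bcl2l11 regions. Under 50% reciprocal overlap the Bmf start became lost, because its 120 h peak covers too little of the region, and the other 17 kept their class. In this setting 15 of 18 were called in the same lists, the Bcl2l2 start was called in 3 lists in place of 4 and the region inside Bbc3 in 4 in place of 5, and 7 of 8 lost regions switched once.

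Lists cut to the 7987 widest peaks called 13 regions, with 3 lost (all of them switching once) and 4 gained in place of 7 and 2. By list, 7 were then called in continuous E2, 9 after 24 h and 7 after 40 h in place of 13, 16 and 11, and 15 other apoptosis regions were lost in place of 25. This cut shortens every list but that of 120 h, so narrow peaks leave the earlier lists first, and Bax and Bmf starts became gained by construction. The Bid start was then called in 2 lists in place of 5 and in neither end point, and 8 of 18 regions were called in the same lists. The Bcl2l2 start was called in 2 lists in place of 4 and the Bcl2 region at 86.8 kb in 1 in place of 5, while the Bbc3 start was no longer called. The lost regions of Bcl2 at 158.5 and 198.4 kb and that of Bmf away from its start were no longer called either. Without the narrowest 25% of each list, 13 regions were called, 1 in neither end point in place of 3, with 9 after 24 h, 7 after 40 h and 6 after 56 h in place of 16, 11 and 11. Here 7 of 18 were called in the same lists. The Bmf start, called in 1 list in place of 6, became lost, the Bax start became gained, the Bcl2 region at 86.8 kb was no longer called, and the Bid start was called in 3 lists. The Bcl2l2 start was called in 2 lists, and the Bbc3 start was no longer called. The Bcl2 region at 198.4 kb and that of Bmf away from its start were also no longer called. The Bcl2 region at 158.5 kb was called in 1 list. Taking every region within 50000 bases gave 45 regions, 13 lost (12 switching once), 5 gained and 23 kept, with 36, 37, 30, 33, 34 and 28 called in the order of the lists and 198 calls in all in place of 72.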
